A study of Oryza sativa Japonica Group with 6 samples.

Results

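Aquaporins are membrane channels that let water, and in some classes small uncharged solutes, cross a membrane down its gradient. The plasma membrane intrinsic proteins (PIPs) carry water through the outer membrane of the cell, and the tonoplast intrinsic proteins (TIPs) do so at the vacuole. The nodulin 26-like proteins (NIPs) include channels for silicon, boron and arsenite, and the small basic proteins (SIPs) are known from Arabidopsis as channels of the endoplasmic reticulum. The family was followed here in a pair of accessory cell types of the rice embryo sac, the synergids, which flank the egg cell where the pollen tube arrives, and the antipodals at the opposite end.

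Members were genes whose symbol or synonym reads PIP, TIP, NIP or SIP with a number and a subnumber, or AQP, and only probe sets paired with 1 gene were used. Of 57258 probe sets that are not controls, 31 belonged to the family, and they reported 25 genes. There were 13 probe sets for 10 PIP genes, 11 for 8 TIP genes, 5 for 5 NIP genes and 2 for 2 SIP genes. The RefSeq table held 4 further members (PIP2-3, NIP1-2, NIP3-3 and TIP5;1) with no probe set of their own here. A suffix (_a, _s or _x), for probes not unique to a single transcript, was carried by 12 of the 31 probe sets. The suffix _a marks transcripts of the same gene, while closely related members may share signal under _s or _x. Those with _s or _x were the brighter probe sets of PIP2-2 and TIP2-1, the brightest of PIP2-1 and the dimmer of TIP1-1. The probe sets of TIP2-2, TIP3-1, TIP4-2 and NIP2-2 carried them as well.

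The data were 6 Affymetrix rice arrays, 3 of synergids and 3 of antipodals, from wild type Oryza sativa ssp. japonica plants of the cultivar Katy raised in a greenhouse under long days. Both cell types were taken at anthesis by dissection without enzymes, synergids from the micropylar and antipodals from the chalazal part of the embryo sac. Separate plants or days are not named for the arrays, though the labels use the term biological replicate, so a p-value covers only array-to-array spread, which may in part be technical. How many cells went into an array is uncertain, as the text on labelling describes eggs and zygotes instead. In RNA pooled from cells, fewer cells with a transcript and less transcript per cell cannot be told apart.

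Some facts of the arrays touch every result. The values are MAS5 signals, a linear brightness per probe set with no detection call in the table, and each array had the same trimmed mean of 500.1. The median signal of the probe sets was 46.5 to 67.1 on 5 arrays and 170.3 on antipodal array 2, which also correlated least with the others (Pearson r across tested probe sets 0.734 to 0.783). No probe set was found by symbol for the synergid marker MYB98 or the egg cell marker EC1, both known from Arabidopsis thaliana, so the labels could not be checked against them. The genes taken as markers of the surrounding ovule were MADS3, MADS13, MADS21, MADS29 and MADS58, and their specificity to it was not tested. Their summed signal was 11022 to 15527 on synergid arrays and 4935 to 12222 on antipodal arrays. Of these 5 markers 4 had no overlap between the cell types, higher in synergids (6.17% of all tested probe sets), and 0 passed the test. Their part in the aquaporin values was not tested.

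The brightest signals of the family came from a tonoplast and a plasma membrane channel, and both were bright in both cell types. Percentiles below give the share of probe sets on the same array with a lower signal; probe sets differ in how strongly they bind, so this is no order of transcript amounts. TIP1-1 (LOC4331608), a tonoplast water channel, gave 9903, 11436 and 15300 in synergids and 9910, 30196 and 8434 in antipodals in its brighter probe set. That probe set lay at the percentile 98.2 or above on every array. The antipodal signals enclosed the synergid ones, and antipodal array 2 alone stood high. The dimmer probe set of TIP1-1, with the suffix _x, gave 1224, 1813 and 2191 in synergids. In antipodals it gave 1184, 2207 and 1889, and it lay at the percentile 86.1 or above on every array. PIP1-2 (LOC9270874), a member of the PIP1 group, which in maize reaches the plasma membrane together with PIP2 partners, gave 7790, 3336 and 4695 in synergids and 7048, 8548 and 4717 in antipodals. Its percentile was 94.3 or above on every array, and its groups overlapped.

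A median percentile of at least 80 was reached by 11 probe sets of 9 genes, with each of the 4 classes represented. In the NIP class this was NIP1-1 (LOC4328814), with 2938, 3063 and 3004 in synergids and 1529, 3434 and 2439 in antipodals. Its synergid arrays lay within a coefficient of variation of 2.08%, while the antipodal arrays spanned values on both sides of them. In the SIP class it was SIP1-1 (LOC4325361), with 2012, 961 and 1218 in synergids and 3152, 570.4 and 2164 in antipodals, again with the synergid values inside the antipodal range. The other genes at this level were PIP1-1, PIP2-1, PIP2-2, TIP2-2 and TIP4-1. The dimmest probe sets of PIP2-1, PIP2-2 and TIP4-1 had lower median percentiles, 51.2, 44.0 and 53.6. A percentile of at least 80 on every array was reached by 8 probe sets of 7 genes.

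**Figure D1:**
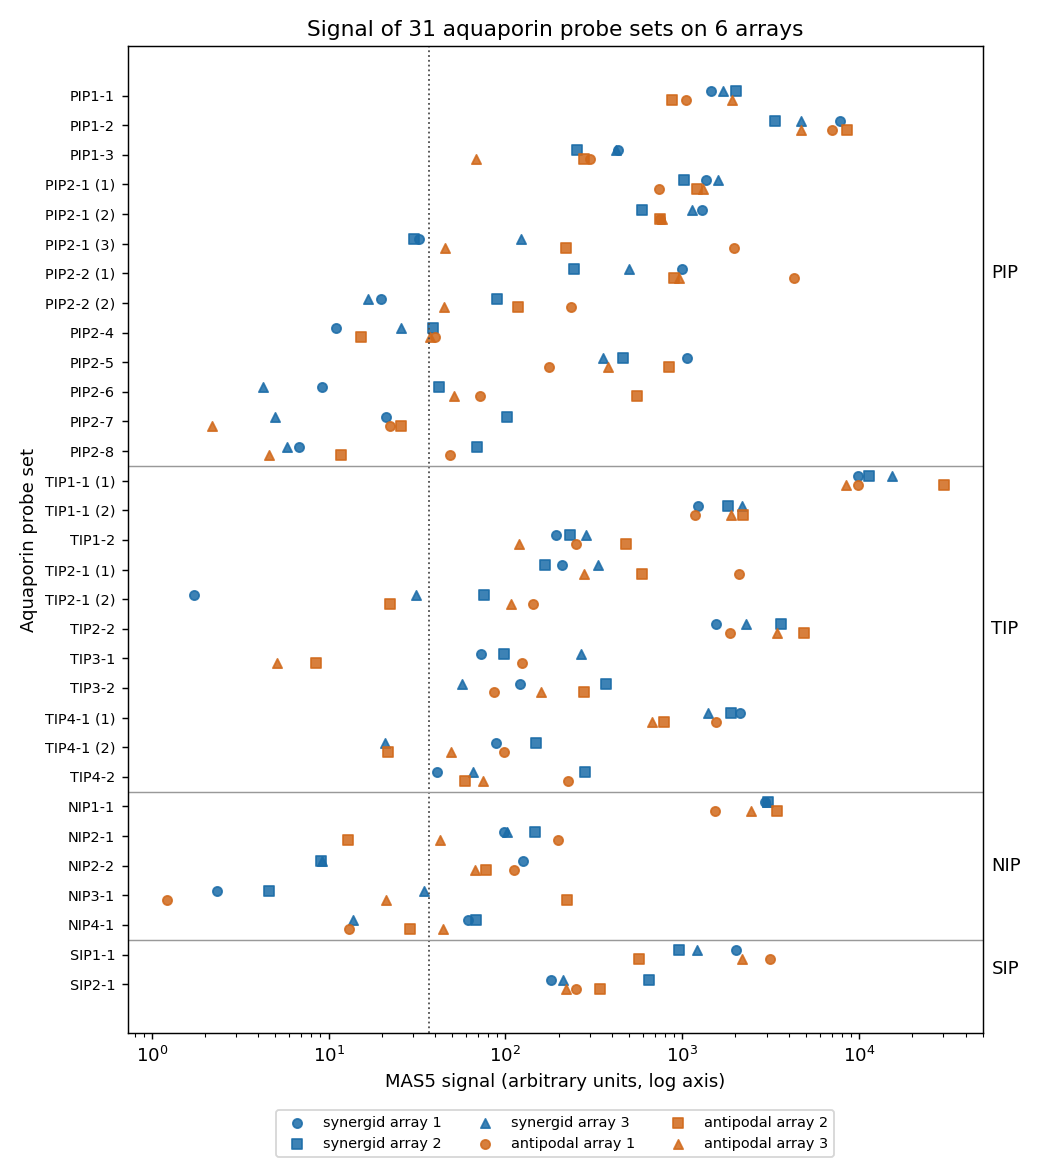
MAS5 signal (log axis) of each of the 31 aquaporin probe sets, in blue for synergid and orange for antipodal arrays, with a symbol for each array number; numbers in brackets rank the probe sets of 1 gene by mean. The dotted line marks a signal of 36.7, which corresponds to the filter on low values. The brighter probe set of TIP1-1 and that of PIP1-2 lie far to the right in both cell types. The ranges of the blue and orange points overlap for all members but PIP2-6.

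At the dim end, 5 genes did not pass the filter on low values, which left out probe sets whose mean log2(signal + 16) over all 6 arrays was below 5.72. These were PIP2-4, PIP2-7, PIP2-8, NIP4-1 and NIP3-1, the last a boron channel gene whose loss gives the dwarf and tiller-enhancing phenotype behind its symbol DTE1. Their signals ran from 1.22 to 223, the latter for NIP3-1 on antipodal array 2, where the other arrays gave 1.22 to 34.8. PIP2-4 gave 10.96 to 39.7 and NIP4-1 13.1 to 68.5 over the 6 arrays. PIP2-7 gave 2.18 to 101.9 and PIP2-8 4.61 to 68.7, both highest on synergid array 2. A low signal of a single probe set does not show that the gene is silent.

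The comparison asks whether any aquaporin differs in transcript level between synergids and antipodals, and none passed the test. Of the 26 aquaporin probe sets tested with limma, for 20 genes, 0 had an adjusted p under 0.05 (lowest adjusted p = 0.502), where 0.32% of the 34355 probe sets tested did. An unadjusted p under 0.05 was reached by 4 aquaporin probe sets (15.4%), against a background of 8.3%. The log2 fold changes, synergid minus antipodal, were above 0 for 11 and below 0 for 15 (57.7%, against 54.7% of all tested probe sets), with a median of -0.07 beside -0.08 over all tested probe sets. This split became 13 to 13 after quantile normalization and 15 above to 11 below after median centring. A log2 fold change of at least 1 in size was seen in 8 of the 26 (30.8%), against 19.8% of all tested probe sets. Of the 26, 5 passed the filter through 1 cell type only, 4 through antipodals (PIP2-6, NIP2-2 and the dimmer probe sets of PIP2-2 and TIP2-1) and 1 through synergids (TIP3-1), so these counts are no support for a difference.

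The precision was limited: the 95% interval of the log2 fold change had a median half-width of 1.31. It lay within -2 and 2 for 15 of the 26 probe sets and within -1 and 1 for 1, a probe set of TIP1-1 (-0.01, interval -0.82 to 0.81). For all but that one, the interval reached past a 2-fold difference in at least 1 direction.

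**Figure D2:**
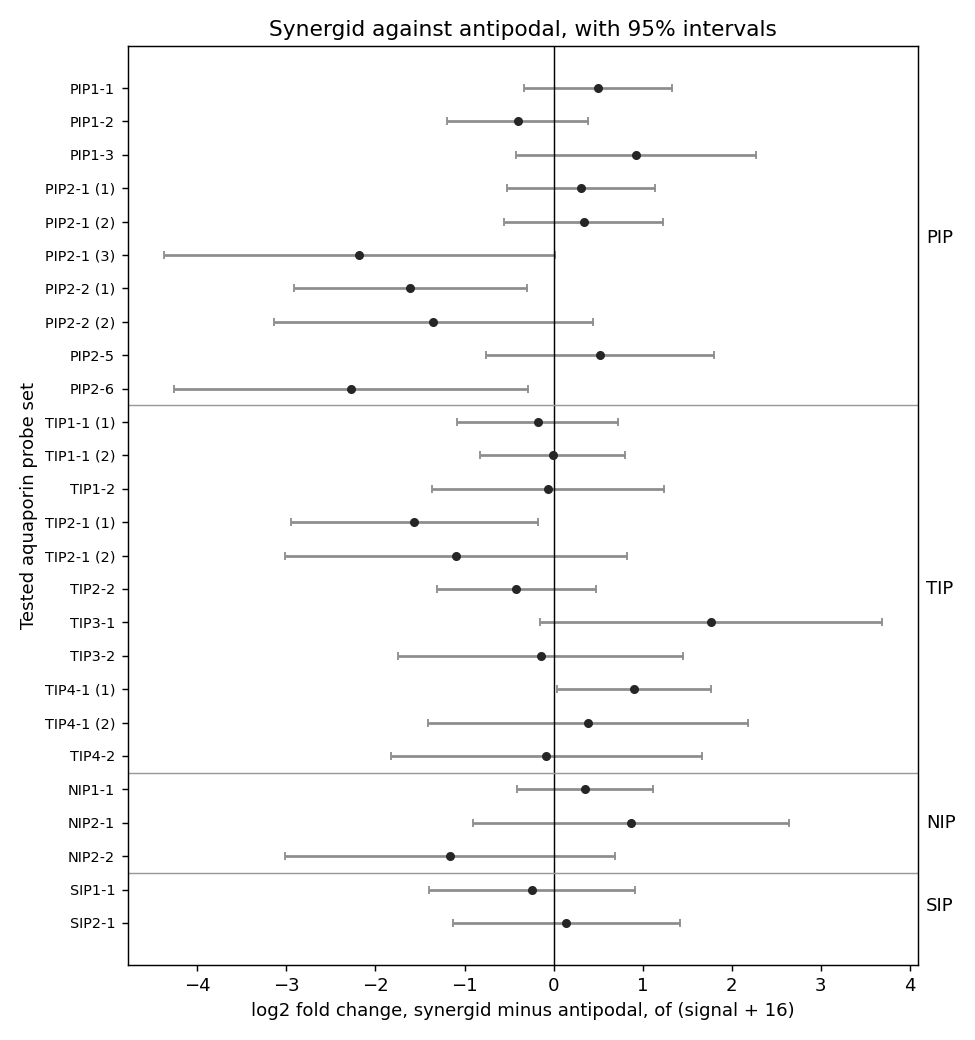
Log2 fold change of (signal + 16), synergid minus antipodal, of the 26 tested aquaporin probe sets, with 95% intervals from limma (3 arrays per cell type). The intervals of 22 hold 0, and the points lie between -2.27 and 1.77.

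Among the plasma membrane channels all 3 PIP1 genes were tested, with 2 log2 fold changes above 0 and 1 below, and 0 passed. The synergid mean of PIP1-2 was 5274 ± 2282 and the antipodal mean 6771 ± 1930 (SD, n = 3 each), with a log2 fold change of -0.41 (limma, SE 0.37, adjusted p = 0.811). PIP1-1 (LOC4330248), also known as RWC1, gave 1458, 2001 and 1700 in synergids and 1048, 877 and 1900 in antipodals. Its log2 fold change was 0.50 (limma, SE 0.39, adjusted p = 0.777), and antipodal array 3 lay within the synergid range. PIP1-3, also known as RWC3, ranged from 67.8 to 433 with a log2 fold change of 0.92 and a lone low value on antipodal array 3.

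PIP2 proteins form efficient water channels by themselves, and the largest log2 fold changes of the class, all below 0, belonged to this group. PIP2-2 (LOC4330049) had the lowest p of the family. Its brighter probe set gave 997.9, 245 and 499.6 in synergids and 4307, 901 and 964 in antipodals. This probe set carries the suffix _s, so related members may share its signal. Antipodal array 1 was 4.32-fold above the next array, and synergid array 1 lay above both of the other antipodal arrays. The synergid mean was 581 ± 383 and the antipodal mean 2057 ± 1948 (SD, n = 3 each), and the log2 fold change was -1.61 (limma, SE 0.61, unadjusted p = 0.0191, adjusted p = 0.502). Without antipodal array 1 it was -0.88, and without synergid array 1 it was -2.10. With high against low poly-A spike-in signal as a block it was -2.22 and passed (limma, adjusted p = 0.0290), the only aquaporin call in any setting run. In that setting 0.684% of all tested probe sets passed, and each poly-A level held a lone array of 1 cell type. Within the arrays of high and of low poly-A signal the log2 fold change of this probe set was -1.86 and -2.58. A dimmer probe set of PIP2-2 gave 19.8, 89.6 and 16.7 in synergids and 235, 118 and 44.7 in antipodals, with a log2 fold change of -1.35 (limma, SE 0.84, adjusted p = 0.714) and with synergid array 2 above antipodal array 3.

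PIP2-6 (LOC4335226) was the only aquaporin whose cell types did not overlap, 1 of 26 tested probe sets (3.85%) against 13.4% of all tested (7.26% with antipodals higher). Its signals were 9.15, 42.4 and 4.24 in synergids and 71.7, 554 and 51.4 in antipodals. All 3 antipodal arrays were above all 3 synergid arrays, but the gap between the nearest pair was small and antipodal array 2 was 7.72-fold above the next array. The log2 fold change was -2.27 (limma, SE 0.93, unadjusted p = 0.0279, adjusted p = 0.541). It was -1.31 without antipodal array 2, -3.28 with a pseudocount of 1 and -1.40 with a pseudocount of 64.

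PIP2-1 (LOC4343122) was the only gene whose probe sets differed in sign. Its brightest probe set, which carries a cross-hybridisation suffix, gave 1357, 1029 and 1600 in synergids and 739.7, 1209 and 1312 in antipodals (log2 fold change 0.31). A second one, with the suffix _a, gave 1289, 595 and 1136 in synergids and 744, 747 and 768 in antipodals (0.34). The third, without a suffix, gave 32.5, 30.4 and 121.8 in synergids and 1963, 221 and 45.7 in antipodals. On antipodal array 1, where the brightest probe set of the same gene had its lowest signal, the third was 8.90-fold higher than on the next array. Its log2 fold change was -2.18 (limma, SE 1.03, adjusted p = 0.607), and -0.84 without antipodal array 1. In the RefSeq gene order PIP2-4, PIP2-5 and PIP2-1 are direct neighbours, with 0 protein-coding genes between them. PIP2-4 stayed below the filter, and PIP2-5 ranged from 176 to 1062 with a log2 fold change of 0.52 and overlapping groups.

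**Figure D3:**
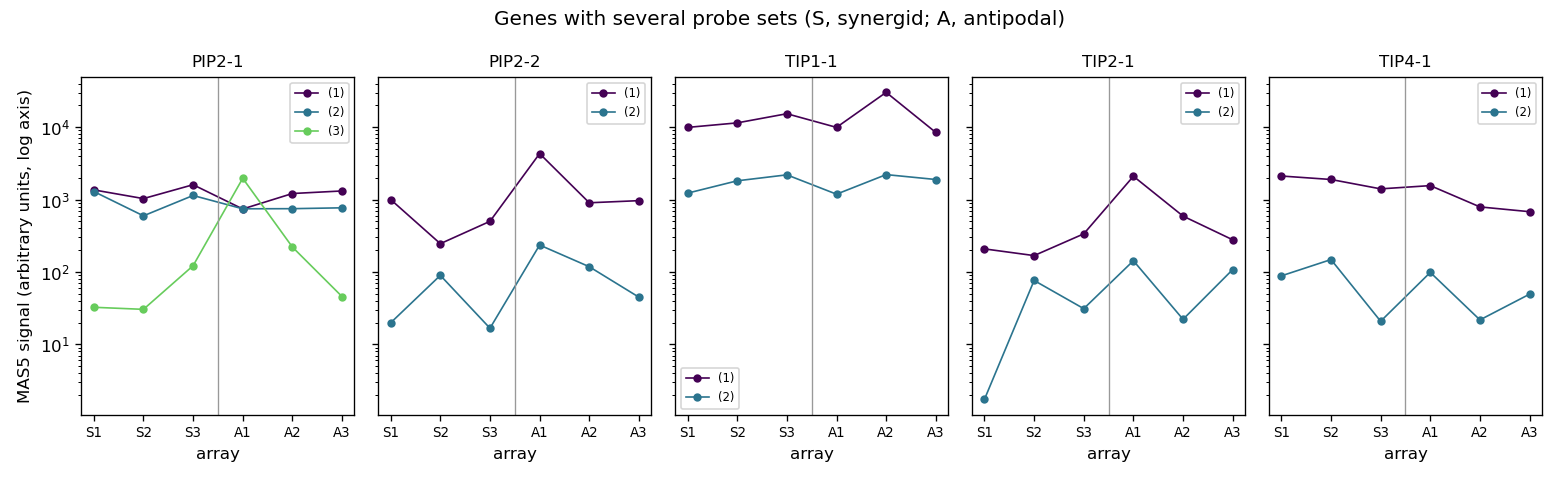
MAS5 signal (log axis) on the synergid (S1 to S3) and antipodal (A1 to A3) arrays for the 5 genes with several probe sets; each line is a probe set, numbered by mean signal as in the plot of all signals. The third probe set of PIP2-1 and the brighter ones of PIP2-2 and TIP2-1 peak on antipodal array 1, while the first probe set of PIP2-1 is lowest there.

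Among the tonoplast channels 8 of 11 tested probe sets had a log2 fold change below 0 and 3 above, and 0 passed. The split was 4 below and 7 above after median centring, and 6 below and 5 above after quantile normalization. For the brighter probe set of TIP1-1 the synergid mean was 12213 ± 2782 and the antipodal mean 16180 ± 12160 (SD, n = 3 each). Its log2 fold change was -0.18 (limma, SE 0.42, adjusted p = 0.935, 95% interval -1.09 to 0.72). TIP2-2 (LOC4340941) gave 1553, 3621 and 2303 in synergids and 1853, 4870 and 3456 in antipodals, with a log2 fold change of -0.42 (limma, SE 0.42, adjusted p = 0.827). Its arrays interleaved, with synergid array 2 above antipodal array 3.

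TIP2-1 (LOC4330207), a tonoplast channel of the same subgroup as TIP2-2, gave 207.9, 168 and 335.5 in synergids and 2094, 590 and 278 in antipodals in its brighter probe set. Antipodal array 1 was 3.55-fold above the next array, and antipodal array 3 lay below synergid array 3. The log2 fold change was -1.57 (limma, SE 0.65, unadjusted p = 0.0296, adjusted p = 0.5495), and -0.79 without antipodal array 1. Its dimmer probe set gave 1.74, 76.1 and 31.1 in synergids and 142.7, 22.1 and 107.8 in antipodals, with a log2 fold change of -1.09 and overlapping groups.

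The remaining TIP genes are named with their values seen. TIP4-1 gave 2111, 1890 and 1403 in synergids and 1555, 790 and 679 in antipodals in its brighter probe set. Synergid array 3 was the only synergid array below antipodal array 1, and the log2 fold change was 0.90 (limma, SE 0.41, unadjusted p = 0.0421, adjusted p = 0.585). The dimmer probe set of TIP4-1 had a log2 fold change of 0.39. TIP3-1, of the seed-type tonoplast channels, had the highest log2 fold change of the family, 1.77 (limma, SE 0.90, adjusted p = 0.640). Its probe set carries the suffix _s and passed the filter through synergids only. It gave 72.4, 98.1 and 267.3 in synergids and 123.9, 8.50 and 5.14 in antipodals, so that antipodal array 1 exceeded 2 of the 3 synergid arrays. Leaving out antipodal array 1 gave 2.64, antipodal array 3 gave 1.28 and synergid array 3 gave 1.27, and the value was 0.18 on the arrays of low poly-A signal. TIP1-2, TIP3-2 and TIP4-2 had log2 fold changes of -0.06, -0.15 and -0.08, with signals from 41.3 to 479 and overlapping groups in each.

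Of the NIP genes 3 were tested and 0 passed. The synergid mean of NIP1-1 was 3002 ± 62.4 and the antipodal mean 2467 ± 953 (SD, n = 3 each), with a log2 fold change of 0.36 (limma, SE 0.36, adjusted p = 0.828). NIP2-1 (LOC4330713), the silicon influx channel of rice roots also known as Lsi1, gave 98.4, 147.5 and 102.7 in synergids and 197.6, 12.9 and 42.7 in antipodals. Its 3 antipodal arrays lay on both sides of the synergid ones, and the log2 fold change was 0.87 (limma, SE 0.83, adjusted p = 0.820). NIP2-2 (LOC4340558), the silicon channel Lsi6 of shoots, gave 125.1, 9.06 and 9.21 in synergids and 112.5, 77.7 and 67.4 in antipodals. It was high on synergid array 1 and low on the other two, and its log2 fold change was -1.16 (limma, SE 0.87, adjusted p = 0.764). The probe set of Lsi2, the silicon exporter that works with Lsi1 in roots, gave 2.00 to 43.3 over the 6 arrays and did not pass the filter.

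Both SIP genes were tested and 0 passed. The synergid mean of SIP1-1 was 1397 ± 548 and the antipodal mean 1962 ± 1302 (SD, n = 3 each), with a log2 fold change of -0.24 (limma, SE 0.54, adjusted p = 0.931). SIP2-1 (LOC4332668) gave 181, 652 and 211 in synergids and 251, 341 and 219 in antipodals. Synergid array 2 was above, and the other synergid arrays below, every antipodal array, and the log2 fold change was 0.14 (limma, SE 0.60, adjusted p = 0.968).

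Several of the largest differences rested on single arrays. A probe set more than 2-fold above its next array on antipodal array 1 occurred 3 times among the 26 aquaporins (11.5%), against 1.39% of all tested probe sets, a count chosen after the values were seen. These were the third probe set of PIP2-1 and the brighter ones of PIP2-2 and TIP2-1. On antipodal array 2 this occurred 1 time, for PIP2-6 (against 18.1% of all), and on synergid array 3 also 1 time, for TIP3-1 (against 0.617%). Vascular markers (SUT1, SUT2 and SUT4) had a summed signal of 1895 on antipodal array 1, against 1818 to 3754 on the other arrays, and 0 of their 4 probe sets were highest there. Ovule markers had their lowest summed signal, 4935, on that array. Epidermal markers (Roc genes) had their lowest as well, 15999.8, against 18401 to 29177 on the other arrays, and 2 of their 9 probe sets were highest on it. Their log2 fold changes between the cell types were mixed, 4 above 0 and 3 below among 7 tested, the lowest -1.92 for Roc3. Of the anther markers, RTS gave 4.75 to 13.9 and did not pass the filter on low values, and TDR gave 2.66 to 91.4. Their summed signal was 89.0 on antipodal array 1, against 7.41 to 102.6 on the other arrays. Whether other cells contributed to the high aquaporin signals there was not tested.

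**Figure D4:**
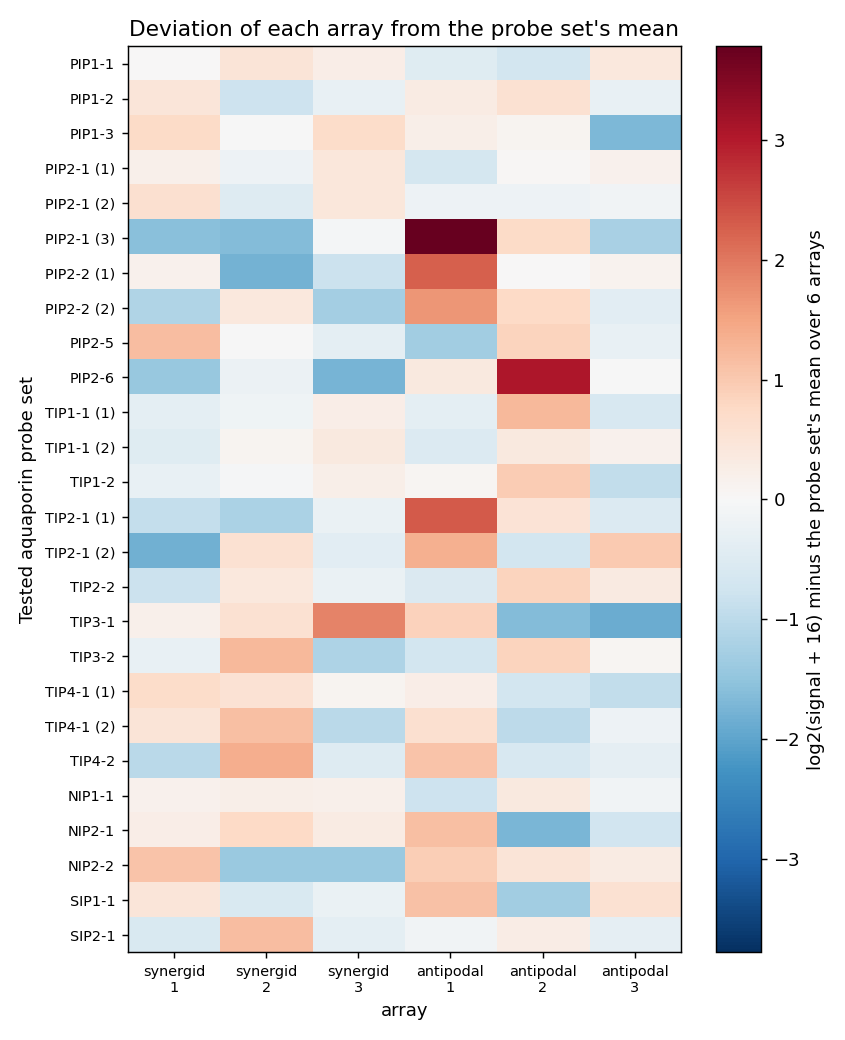
Log2(signal + 16) of each array minus the mean over the 6 arrays, for the 26 tested aquaporin probe sets; red is above and blue below the probe set's mean. The darkest red cells are single arrays, antipodal array 1 for the third probe set of PIP2-1 and antipodal array 2 for PIP2-6.

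Genes that act beside aquaporins were counted from lists of symbols. The 14-3-3 proteins bind phosphorylated targets, among them the plasma membrane proton pump that drives solute uptake. Of 7 tested 14-3-3 genes 0 passed, with 5 log2 fold changes above 0 and 2 below and a median of 0.28. Of 4 tested probe sets of potassium and calcium channels that bear on turgor (AKT1, TPKA and TPC1) 0 passed, with log2 fold changes from -0.61 to 0.96. The proton pump symbols searched for matched no probe set paired with 1 gene.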

How the data were processed

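Synergids and antipodals of rice were compared on 3 arrays each. The authors deposited 1 table of linear signal intensity per probe set; per the submitters' processing notes it was made with GCOS 2.0 and MAS5. Each of the 6 columns carries the name of its sample. Genes were named through gene numbers in the RefSeq table of ASM3414082v1. The members and lists were chosen with earlier results of these data known.

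Signals were transformed to log2(signal + 16). Controls and probe sets in the lowest 40% by mean over all arrays were left out, and 34355 probe sets were fitted with limma 3.58.1 in R 4.3.3 (lmFit, eBayes with an intensity trend, residual degrees of freedom 4, prior 10.6), with cell type as the only term. P-values were adjusted over all tested probe sets by the Benjamini-Hochberg method, and a call is an adjusted p under 0.05. The fit was tested on simulated data, but no outcome of that is given here and no result rests on it. Alternatives were another pseudocount, filter, normalization, variance model or naming rule, each array left out, and blocks or subsets by replicate number, poly-A spike-in signal and number format of the columns. The number of arrays limits the precision.

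By the naming rule, per-array values were given for members with the 3 lowest p among PIP and TIP and among NIP and SIP genes, the 2 highest means of each class, no overlap, a call, or probe sets that differ in sign (13 genes); the others were named with their values seen.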

Additional observations from a re-analysis of the deposited data

How the results depend on the processing

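In 23 of 24 other settings 0 aquaporin probe sets were called with limma (4 reached an unadjusted p under 0.05 under the reported setting, and 1 to 10 in the others). The exception was the block for high against low poly-A spike-in signal, with 1 call, PIP2-2. Poly-A signal was high on synergid array 2 and antipodal arrays 2 and 3, so each level holds a lone array of 1 cell type, assumed to vary like the others. The replicate numbers were not taken as pairs, since the labels do not tie them to a shared plant or day. Deviations from the group means correlated at 0.218, 0.116 and 0.0197 between arrays of the same number. Unmatched arrays were not set beside these, so they do not settle whether the arrays are paired. With the replicate block 0 aquaporins were called (limma, lowest adjusted p = 0.107). Calls over all tested probe sets, 110 as reported, were 31 without the intensity trend, 193 with array weights, 293 with the replicate block, 284 and 458 with the number format as a block and in the longer format alone, and 235 and 213 with the poly-A block and on the high arrays; without synergid arrays 1, 2 and 3 they were 317, 42 and 61. Over the other settings the median log2 fold change of the aquaporins ran from -0.16 to 0.20, all within 1 SD (0.43) of the reported value. Median centring moved the median of all probe sets from -0.08 to 0.07. Of 607 values of single probe sets under other settings 45 had the opposite sign. Another filter, trend or robust variance, the replicate and number format blocks, the choice of probe sets and the naming rule leave fold changes unchanged. Values from those settings could not change sign, so 45 of 607 understates how often the sign depended on the rest. The 45 came from 15 probe sets, none of them called, and 11 kept their sign throughout. The largest shift was that of the third probe set of PIP2-1, -4.60 on the low poly-A arrays (limma, adjusted p = 0.0586, the lowest over its settings) against -2.18 as reported. Within the poly-A levels TIP4-2 had 1.84 and -1.82 and NIP2-1 1.99 and -0.87 on the high and the low arrays. Matching names without a separator added 0 genes, so that setting, counted among the 24, only repeats the reported fit. Without detection calls, signal over background was not assessed.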

Other observations

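Probe sets paired with an aquaporin and a second gene were left out of the family and are given as values. Both had antipodals higher without overlap, as did 7.26% of all tested probe sets. The probe set paired with PIP2-1 and PIP2-5 gave 448, 270 and 228 in synergids and 546, 889 and 500.3 in antipodals, with no overlap between the cell types (log2 fold change -1.01, limma, adjusted p = 0.623). The own probe sets of PIP2-5 and 2 of the 3 of PIP2-1 had log2 fold changes above 0. The probe set paired with TIP3-1 and LOC9266492 gave 36.8, 52.5 and 34.7 in synergids and 128.7, 189.8 and 59.5 in antipodals without overlap (log2 fold change -1.21, limma, adjusted p = 0.715). The probe set paired only with TIP3-1 had a log2 fold change of 1.77. It carries the suffix _s, so related members may share its signal too.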
